A study of Homo sapiens with 8 samples.

Results

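The genes described here are 9 genes of plasma membrane amino acid transport and ASNS, the enzyme asparagine synthetase. The 9 are SLC7A11, SLC3A2, SLC7A5, SLC7A1, SLC1A4, SLC1A5, SLC38A1, SLC38A2 and SLC6A9. The 10 genes were chosen by name, with earlier results of these data known. All 10 were found by symbol, each as a single row, among 62649 genes in the table, and all 10 passed the filter on low values (at least 1 TPM in 2 or more libraries), which kept 19122 genes. TPM gives a transcript's abundance per unit of length as a part of its library's total, and all library totals are equal.

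RNA was sequenced from AsPC-1 and PANC-1, established human pancreatic cancer cell lines, both labelled wild type with no engineered allele named. Cells of both lines were grown as spheroids in methylcellulose medium for 3 days, and were then given for 24 h the vehicle, 10 µM roseoflavin, 1 nM trametinib, or the 2 compounds together. Roseoflavin is an antibiotic analogue of riboflavin, and trametinib inhibits the MEK kinases upstream of ERK. With 4 treatments and 2 lines there were 8 libraries, 1 per group, and so no replicates. Errors come from models in which the other compound, and for pooled values the line, serve as replication, and p-values measure only the spread between these 8 libraries.

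Amino acid transporters of the plasma membrane work as exchangers, uniporters or sodium-driven importers. SLC7A11 and SLC7A5 are light chains that reach the cell surface only when linked to the heavy chain SLC3A2. SLC7A11 imports cystine, used for glutathione, in exchange for glutamate, and SLC7A5 imports large neutral amino acids such as leucine. SLC7A1 carries arginine and lysine. SLC1A4 and SLC1A5 exchange small neutral amino acids, and SLC1A5 is a main route for glutamine. SLC38A1 and SLC38A2 take up glutamine, alanine and other neutral amino acids with sodium, and SLC6A9 takes up glycine. ASNS makes asparagine from aspartate and glutamine. Many of these genes are known targets of ATF4, the transcription factor of the integrated stress response, and SLC7A11 is also a known target of NRF2, the factor of the oxidative stress response. Pancreatic cancer cells are known for heavy use of glutamine and cystine.

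Because the genes share ATF4 as a known regulator, the promoter windows in the RefSeq table (GRCh38.p14) were searched for the core of its element, TGATGNAA, on both strands. A window runs from 250 bases before to 50 bases after a transcript start. The table held 16 windows for 9 of the genes and none for SLC7A11. The core was found in 6 of the 16 windows, against 3.62% of all 35116 windows, and in 6 of the 9 genes, against 4.46% of 27305 genes. Since many of these genes are known targets of ATF4, a higher share is no independent finding. The 6 matches are shown on the gene's strand with up to 10 bases on either side and the core in capitals, and in SLC1A4 and SLC3A2 the core lies on the opposite strand.

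ASNS: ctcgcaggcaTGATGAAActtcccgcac
SLC7A1: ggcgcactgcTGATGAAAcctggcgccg
SLC38A1: cagacccgaaTGATGAAAagggatcagc
SLC1A5: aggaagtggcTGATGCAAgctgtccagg
SLC1A4: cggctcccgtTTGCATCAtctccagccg
SLC3A2: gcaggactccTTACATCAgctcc

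These stretches lie at chr7:97872459-97872486 (minus strand) for ASNS, chr13:29595664-29595691 (minus) for SLC7A1, chr12:46266503-46266530 (minus) for SLC38A1, chr19:46784894-46784921 (minus) for SLC1A5, chr2:64989382-64989409 (plus) for SLC1A4 and chr11:62881726-62881748 (plus) for SLC3A2. Counted from the transcript start of the matched window, the first base of the core is at -68 in ASNS, -97 in SLC1A5, -7 in SLC1A4, -4 in SLC38A1, 8 in SLC7A1 and 38 in SLC3A2. In SLC1A5, SLC3A2, SLC1A4 and SLC38A1 the matched window lies downstream of another window of the same gene, which has no match. ASNS, SLC7A1 and SLC38A1 have the same 8 letters, TGATGAAA. The core of the element bound by NRF2, TGACNNNGC, was found in 4 of the 16 windows, those of SLC3A2, SLC7A1, SLC7A5 and SLC1A5, against 13.3% of all windows, and never within 10 bases of the other core. A match is only a description of the letters, and binding was not measured.

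The share of mitochondrial transcripts was 41.2% to 44.1% in the AsPC-1 libraries and 22.8% to 25.6% in those of PANC-1, which moves the TPM of all other genes between lines. Within PANC-1 they took 25.6% and 24.8% without roseoflavin and 23.7% and 22.8% with it. Within AsPC-1 they took 41.2% with vehicle, 44.1% with roseoflavin, 42.2% with trametinib and 41.3% with both. The epithelial keratins KRT8, KRT18 and KRT19 were at 852 TPM or more in every library. The epithelial adhesion genes EPCAM and CDH1 were at 1224 to 1485 and 56.1 to 78.7 TPM in AsPC-1, and at only 14.5 to 16.8 and 5.02 to 6.56 TPM in PANC-1. The mesenchymal genes VIM, ZEB1 and CDH2 were higher in PANC-1, with VIM at 3132 to 3391 TPM against 660 to 816, ZEB1 at 16.9 to 18.8 against 7.67 to 9.06, and CDH2 at 5.48 to 5.57 TPM where AsPC-1 was listed at 0. By contrast, the leukocyte marker PTPRC and the endothelial markers PECAM1 and CDH5 were at 0.073 TPM or less. Of the other markers checked, CD68, also listed as a leukocyte marker, was at 108 to 139 TPM in all libraries. The fibroblast marker COL1A1 was at 98.9 to 107 TPM in PANC-1 and at 0.121 TPM or less in AsPC-1. DCN, also a fibroblast marker, was at 0.083 TPM or less. Markers of cells that a culture should lack were thus not all low.

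On the log2(TPM + 1) scale the largest effect of roseoflavin among the 10 genes in PANC-1, and in AsPC-1, was that of SLC7A11 (ENSG00000151012, chromosome 4, 138164097 to 138242349, minus strand). In PANC-1 it was at 6.61 TPM with vehicle, 12.1 with roseoflavin, 6.87 with trametinib and 13.8 with both. In AsPC-1 the values in the same order were 14.0, 18.8, 12.4 and 16.7 TPM. Both libraries with roseoflavin were above both without it in each line, by 1.83-fold and 2.00-fold in PANC-1 and by 1.34-fold in both AsPC-1 pairs. SLC7A11 is the light chain that imports cystine. On the log2(TPM + 1) scale the effect of roseoflavin was 0.84 in PANC-1 (SE 0.102, limma adjusted p 0.132) and 0.40 in AsPC-1 (SE 0.102, adjusted p 0.399), neither past the threshold of 0.05. Among all genes tested these effects stood at percentiles 99.2 and 97.7. With a pseudocount of 0.1 the AsPC-1 effect of SLC6A9, a gene near 1 TPM there, was larger in size (-0.54 against 0.42).

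SLC3A2 (ENSG00000168003, chromosome 11, 62856102 to 62888875, plus strand), the heavy chain shared by SLC7A11 and SLC7A5, was at 44.6, 56.4, 48.3 and 58.7 TPM in PANC-1 with vehicle, roseoflavin, trametinib and both. In AsPC-1 it was at 36.9, 36.6, 34.4 and 35.1 TPM in that order. The groups with and without roseoflavin were apart in PANC-1 and overlapped in AsPC-1. The effect was 0.30 in PANC-1 (SE 0.0670, adjusted p 0.373) and 0.0073 in AsPC-1.

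SLC7A5 (ENSG00000103257, chromosome 16, 87830023 to 87869488, minus strand), the leucine importer, was at 206, 221, 210 and 238 TPM in PANC-1 in the same order of treatments. In AsPC-1 it was at 41.3, 40.0, 34.6 and 42.5 TPM, with the trametinib library lowest. The effect of roseoflavin was 0.14 in PANC-1 (SE 0.0959) and 0.12 in AsPC-1 with the same SE. The AsPC-1 value rested on the trametinib library, without which it was -0.04. The pseudogenes SLC7A5P1 and SLC7A5P2 were listed at 3.85 to 14.2 TPM, and how reads shared with such copies were assigned is not given in the sources used here.

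Because light chains need the heavy chain, their transcripts were set side by side. The summed TPM of SLC7A5, SLC7A6, SLC7A7, SLC7A8, SLC7A10 and SLC7A11, all partners of SLC3A2, was 2.33, 2.42, 2.34 and 2.71 times that of SLC3A2 in AsPC-1 with vehicle, roseoflavin, trametinib and both. In PANC-1 the ratio was 5.17, 4.44, 4.90 and 4.58. SLC7A5 made up 88.4% to 89.4% of the light chain TPM in PANC-1 and 43.1% to 48.0% in AsPC-1, where SLC7A7, an exchanger of cationic and neutral amino acids, was at 20.8 to 27.5 TPM. SLC7A11 made up 2.87% of the light chain TPM in PANC-1 with vehicle and 4.82% with roseoflavin. On top of trametinib its share was 5.13% with roseoflavin and 2.90% without.

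SLC7A1 (ENSG00000139514, chromosome 13, 29509410 to 29595688, minus strand), the arginine and lysine transporter, was at 39.2, 44.0, 39.4 and 47.1 TPM in PANC-1 and at 25.4, 26.2, 25.6 and 28.4 TPM in AsPC-1. Both roseoflavin libraries were above both others in each line. The effects were 0.21 in PANC-1 (SE 0.0511, adjusted p 0.401) and 0.09 in AsPC-1 (SE 0.0511, adjusted p 0.632).

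SLC1A5 (ENSG00000105281, chromosome 19, 46774883 to 46788594, minus strand), the glutamine exchanger, was at 101, 118, 103 and 126 TPM in PANC-1. In AsPC-1 it was at 148, 130, 152 and 150 TPM. The PANC-1 groups did not overlap, while the AsPC-1 groups did, with the library given roseoflavin alone lowest. The effect was 0.26 in PANC-1 (SE 0.0565, adjusted p 0.373) and -0.11 in AsPC-1 (adjusted p 0.616). Its relative SLC1A4 (ENSG00000115902, chromosome 2, 64988477 to 65023865, plus strand), an exchanger of serine, alanine and cysteine, was at 9.05, 10.9, 8.64 and 10.9 TPM in PANC-1. It was at 0.171, 0.159, 0.236 and 0.401 TPM in AsPC-1, all below 1 TPM, so it passed the filter through PANC-1 alone. The PANC-1 effect was 0.27 (SE 0.107, adjusted p 0.526).

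SLC38A1 (ENSG00000111371, chromosome 12, 46183063 to 46270017, minus strand), a sodium-coupled glutamine transporter, was at 71.2, 77.6, 69.6 and 79.1 TPM in PANC-1 and at 58.8, 61.6, 59.1 and 60.2 TPM in AsPC-1. Its groups with and without roseoflavin did not overlap in either line, with effects of 0.15 in PANC-1 (SE 0.0420, adjusted p 0.434) and 0.05 in AsPC-1. SLC38A2 (ENSG00000134294, chromosome 12, 46358189 to 46372867, minus strand), known to be induced when amino acids are scarce, was at 177, 185, 164 and 178 TPM in PANC-1 and at 118, 117, 115 and 112 TPM in AsPC-1. Its effects were 0.09 in PANC-1 (SE 0.0402, adjusted p 0.568) and -0.03 in AsPC-1, where the groups overlapped. SLC6A9 (ENSG00000196517, chromosome 1, 43991500 to 44031467, minus strand), the glycine transporter, was at 14.0, 12.9, 11.7 and 14.2 TPM in PANC-1 and at 1.45, 0.694, 1.41 and 1.31 TPM in AsPC-1. It was the only 1 of the 10 whose groups overlapped in PANC-1, with an effect of 0.07 (SE 0.167) there and -0.30 (SE 0.167) in AsPC-1. The AsPC-1 value rested on the library given roseoflavin alone, without which it was -0.055. It was -0.54 without the library given both compounds.

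ASNS (ENSG00000070669, chromosome 7, 97852118 to 97872542, minus strand) differed in opposite directions in the lines. In PANC-1 it was at 72.7 TPM with vehicle, 99.3 with roseoflavin, 73.3 with trametinib and 101 with both. In AsPC-1 the values were 25.9, 21.8, 28.3 and 23.6 TPM in that order. The roseoflavin libraries were above the others in PANC-1, by 1.37-fold and 1.38-fold, and below them in AsPC-1, at 0.842 and 0.834 of the matched library. The effect was 0.45 in PANC-1 (SE 0.0499, adjusted p 0.114) and -0.24 in AsPC-1 (SE 0.0499, adjusted p 0.333). An annotated transcript locus, ENSG00000284707 (chromosome 7, 97851688 to 97972985, minus strand), covers ASNS on the same strand, so counting may have divided reads between them. It was at 72.2, 96.1, 72.7 and 98.3 TPM in PANC-1 and at 41.7, 37.6, 44.2 and 40.4 TPM in AsPC-1. With the values of both summed, the effects were 0.44 and -0.18, so the directions held while the level of ASNS itself is uncertain.

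**Figure D1:**
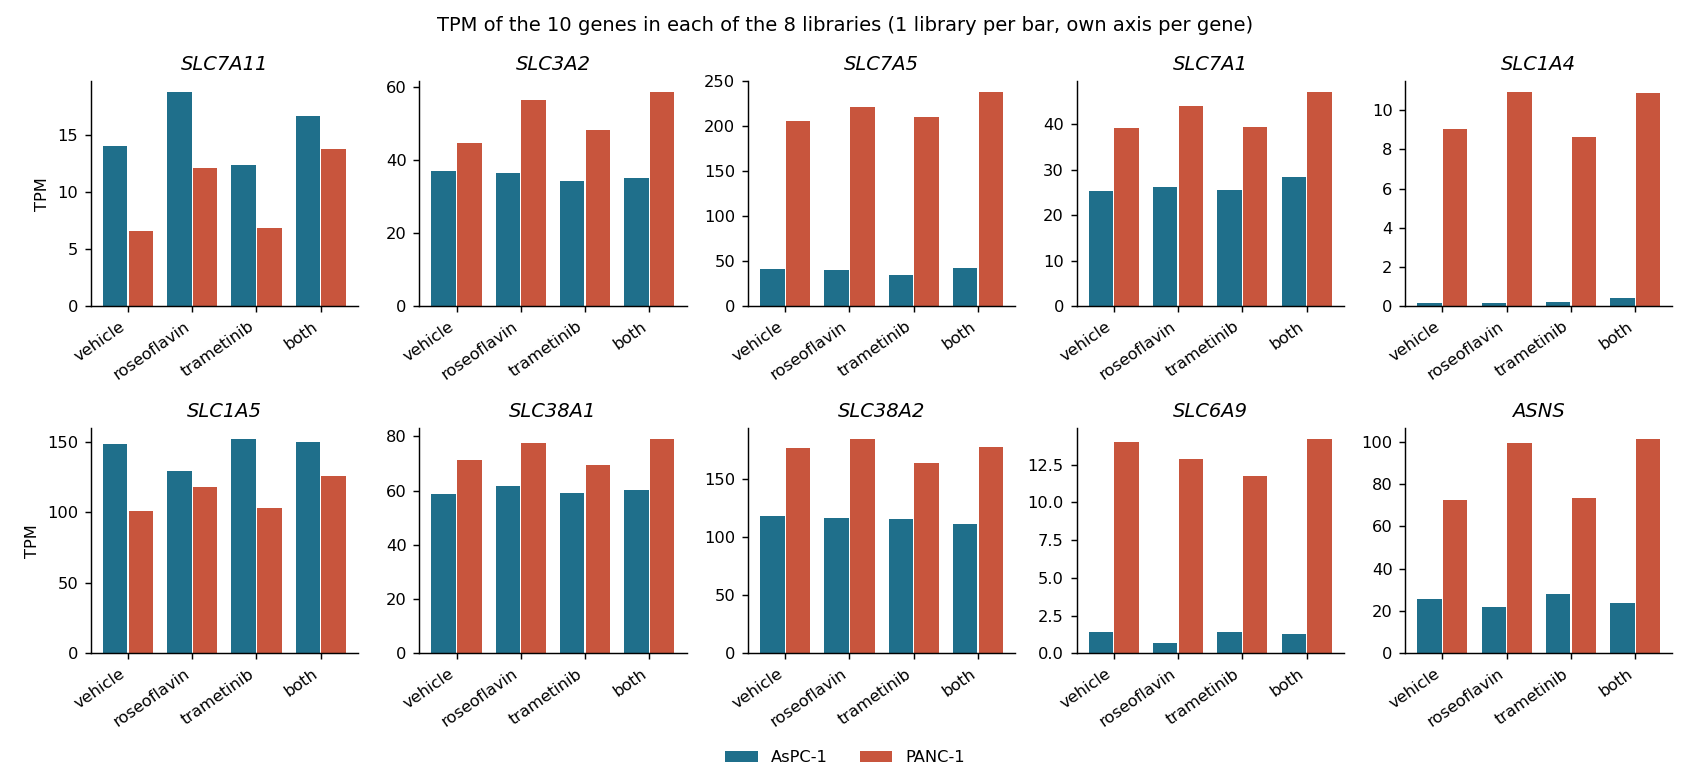
TPM of each gene in the 8 libraries, 1 bar per library, with the treatment on the x axis, TPM on the y axis from 0 and a separate scale for each gene. SLC7A11 was higher with roseoflavin in both lines, and ASNS was higher with it in PANC-1 (99.3 and 101 TPM) and lower in AsPC-1 (21.8 and 23.6 TPM).

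Taking the genes together in PANC-1, all 10 had a positive effect of roseoflavin, with a median of 0.23 beside 0 over all genes tested, and without the PANC-1 trametinib library 9 had, the exception being SLC6A9 (-0.14). In 9 of the 10, all but SLC6A9, both roseoflavin libraries were above both others, which was true of 22.9% of all genes tested, and in 0 of the 10 were they below (22.7%). None passed the adjusted threshold with limma, as was the case for 0% of all genes, and 7 had a positive effect at an unadjusted p under 0.05, as did 5.01% of all genes. These 7 were SLC7A11, ASNS, SLC3A2, SLC1A5, SLC7A1, SLC38A1 and SLC1A4. Since the 10 genes were chosen with earlier results of these data known, the counts beside these shares are only descriptive. The summed TPM of the 10 genes in PANC-1 was 741 with vehicle, 837 with roseoflavin, 735 with trametinib and 867 with both. With mitochondrial genes left out of the total, the median effect was 0.20 and all 10 effects were still positive.

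In AsPC-1 the same genes split. The median effect was 0.03 beside -0.03 over all genes, and it changed sign without the AsPC-1 trametinib library (-0.024) or the AsPC-1 roseoflavin library (-0.0011). With mitochondrial genes left out of the total, the median was 0.05 beside -0.01 over all genes. Both roseoflavin libraries were above the others for 3 genes (SLC7A11, SLC7A1 and SLC38A1), against 10.6% of all genes, and below them for 2 (ASNS and SLC6A9), against 21.6%. None passed the adjusted threshold (0% of all genes), and at an unadjusted p under 0.05 there was 1 gene higher, SLC7A11 (2.24% of all genes), and 1 lower, ASNS (7.33%). The summed TPM was 470 with vehicle, 452 with roseoflavin, 463 with trametinib and 469 with both. Over both lines 9 of the 10 effects were positive, the exception being SLC6A9, with a median of 0.12 beside -0.017 over all genes. That count includes ASNS, SLC1A5 and SLC38A2, whose effects were negative in AsPC-1. At an unadjusted p under 0.05, 3 had a positive effect (SLC7A11, SLC7A1 and SLC38A1) against 2.03% of all genes. None of the 10 passed after adjustment (0% of all genes). The largest was that of SLC7A11, at 0.62 (SE 0.112, limma adjusted p 0.595). SLC7A11, SLC7A1 and SLC38A1 were each higher in 4 of 4 matched pairs, a description given without the share of all genes.

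**Figure D2:**
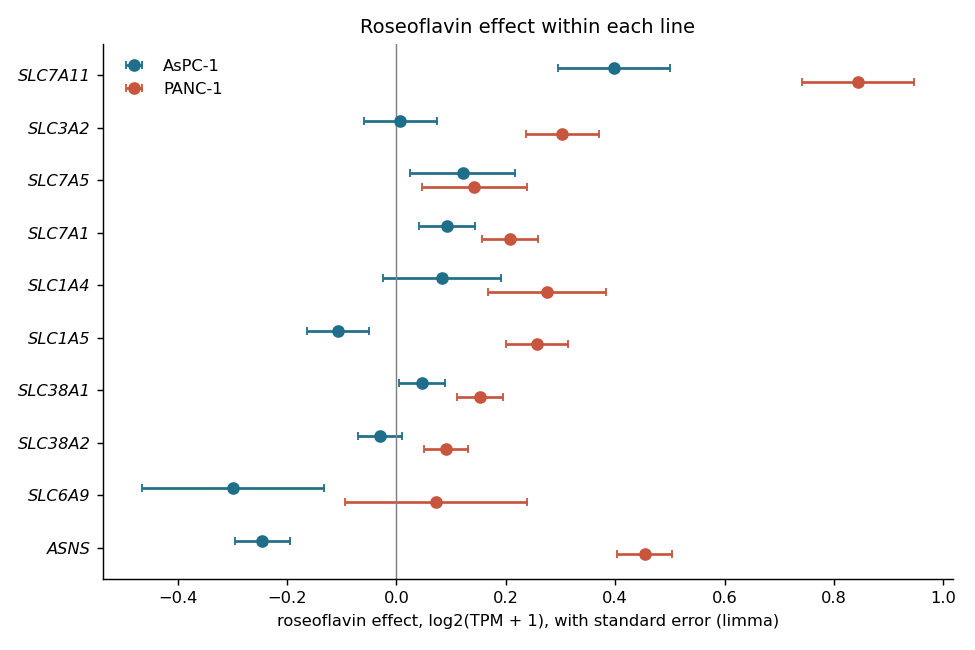
Effect of roseoflavin on each gene within AsPC-1 and within PANC-1, on the log2(TPM + 1) scale on the x axis, with points for the limma estimates and bars for 1 standard error. The estimate was higher in PANC-1 for each gene, nearly equal for SLC7A5 (0.14 and 0.12), and on opposite sides of 0 for ASNS, SLC1A5, SLC38A2 and SLC6A9.

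**Figure D3:**
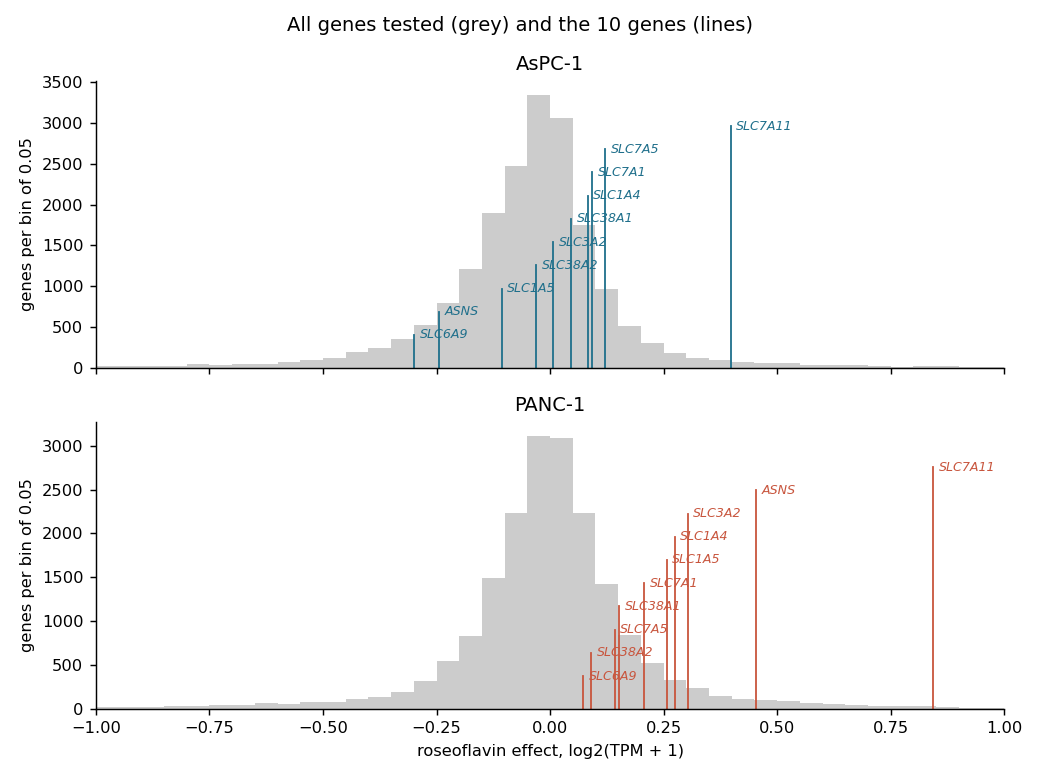
Distribution of the roseoflavin effect over the genes tested (grey bars, number of genes per bin of 0.05 on the log2 scale), drawn between -1 and 1, with a vertical line at the effect of each of the 10 genes. Line heights only separate the labels. In PANC-1 all 10 lines lie to the right of 0, and in AsPC-1 they lie on both sides.

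Whether the lines differed in this response was tested as an interaction, the PANC-1 effect minus the AsPC-1 effect. The difference was positive for all 10 genes, with a median of 0.24 beside 0.04 over all genes tested, and none passed the adjusted threshold, against 0.0261% of all genes. The median was 0.13 without the AsPC-1 roseoflavin library or without the PANC-1 trametinib library. Without the AsPC-1 vehicle, AsPC-1 roseoflavin, PANC-1 vehicle or PANC-1 both library, 9 of the 10 differences were positive. It was also 9 with mitochondrial genes left out of the total (median 0.18 beside -0.011 over all genes) and with quantile normalization (0.22 beside -0.0064). The difference was 0.70 for ASNS (SE 0.0706, limma adjusted p 0.159), 0.45 for SLC7A11 (SE 0.145, adjusted p 0.448), 0.36 for SLC1A5 (SE 0.0800, adjusted p 0.344) and 0.30 for SLC3A2 (SE 0.0947, adjusted p 0.441). These 4 were the ones with an unadjusted p under 0.05, which 6.98% of all genes reached with a positive difference. For SLC7A5 it was 0.02 (SE 0.136), a value that changed sign when the total left out mitochondrial genes (-0.04) or was quantile normalized (-0.02). SLC1A4, at 0.401 TPM or less in AsPC-1, passed the filter through PANC-1 alone and could hardly show an effect in AsPC-1. Its difference of 0.19, counted among the 10 positive ones, therefore rests largely on PANC-1. ASNS, SLC1A5 and SLC38A2 were lower with roseoflavin in both AsPC-1 pairs and higher in both PANC-1 pairs, a pattern shared by 11.5% of all genes tested.

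Trametinib at 1 nM went with smaller differences. Its effects over both lines lay between -0.07 (SLC38A2) and 0.09 (SLC1A5), none of the 10 passed after adjustment (0% of all genes), and none reached an unadjusted p under 0.05, against 4.91% of all genes. SLC38A2 was lower in 4 of 4 matched pairs, with changes between -2.35% and -7.25%, and its effect did not pass (limma adjusted p 0.861). SLC1A5, SLC7A1 and ASNS were each higher in 4 of 4. These patterns are given without the share of all genes. In PANC-1 no gene had trametinib libraries all above or all below the others, against 16.1% and 11.6% of all genes. In AsPC-1 there were 2 above (SLC1A5 and, at 0.401 TPM or less, SLC1A4) and 2 below (SLC3A2 and SLC38A2), against 24.0% and 13.3%. The lines' responses to trametinib differed by -0.27 to 0.27, with 0 genes at an unadjusted p under 0.05 against 7.28% of all genes. The interaction of the compounds lay between -0.0065 and 0.42, with 0 against 2.80%. After adjustment no gene passed in either test (0% of all genes).

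The lines also differed in the levels of these genes, and here the spread is that between 4 differently treated libraries of 1 line. In AsPC-1 the order of the mean TPM was SLC1A5 (145 ± 10.3, SD, n = 4 libraries), SLC38A2 (115 ± 2.81), SLC38A1 (59.9 ± 1.30), SLC7A5 (39.6 ± 3.47), SLC3A2 (35.7 ± 1.20), SLC7A1 (26.4 ± 1.36), ASNS (24.9 ± 2.80), SLC7A11 (15.5 ± 2.82), SLC6A9 (1.22 ± 0.353) and SLC1A4 (0.242 ± 0.111). The ranges overlapped between SLC7A5 and SLC3A2 and between SLC7A1 and ASNS. In PANC-1 the order was SLC7A5 (219 ± 14.5), SLC38A2 (176 ± 8.64), SLC1A5 (112 ± 12.1), ASNS (86.7 ± 15.8), SLC38A1 (74.4 ± 4.69), SLC3A2 (52.0 ± 6.64), SLC7A1 (42.4 ± 3.82), SLC6A9 (13.2 ± 1.15), SLC1A4 (9.88 ± 1.20) and SLC7A11 (9.83 ± 3.64). The ranges of neighbours overlapped between SLC1A5 and ASNS, ASNS and SLC38A1, SLC3A2 and SLC7A1, and SLC1A4 and SLC7A11. The leucine importer SLC7A5 thus stood first of the 10 in PANC-1. In AsPC-1 it stood below SLC1A5, SLC38A2 and SLC38A1, the transporters that take up glutamine. Summed with the locus that covers it, ASNS was at 59.5 to 72.5 TPM in AsPC-1 and 145 to 200 TPM in PANC-1. Its place in both orders is therefore uncertain.

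Between lines, SLC7A5 was 5.53-fold and ASNS 3.48-fold higher in PANC-1 by mean TPM, SLC6A9 10.9-fold and SLC1A4 40.8-fold, the last from levels below 1 TPM in AsPC-1. The locus that covers ASNS was at 1.56 to 1.72 times the TPM of ASNS in AsPC-1 and 0.968 to 0.993 times in PANC-1. Summed with that locus, ASNS therefore differed less between lines, and the size of its difference is uncertain. SLC1A5 was 1.29-fold and SLC7A11 1.57-fold higher in AsPC-1, and the SLC7A11 ranges overlapped. All 10 passed the adjusted threshold with limma, against 83.3% of all genes tested, 8 higher in PANC-1 (62.0%) and 2 lower (21.3%). The libraries of the lines did not overlap for the 8 (59.4%) and for SLC1A5 (19.8%). SLC1A4 passed the filter only through PANC-1 and so had to differ. The median difference over all genes was 0.55 (log2, PANC-1 minus AsPC-1) on the TPM scale, 0.22 with mitochondrial genes left out of the total and 0.04 after quantile normalization. Relative to the 0.55, the difference was 2.57 for SLC1A4, 2.14 for SLC6A9, 1.89 for SLC7A5, 1.19 for ASNS, -0.93 for SLC1A5 and -1.20 for SLC7A11. For the other 4 it was between -0.25 and 0.11. Of those, SLC3A2 lost the call with both other scalings (limma adjusted p 0.127 without mitochondrial genes and 0.536 after quantile normalization), and SLC38A1 changed sign with both (-0.08 and -0.14).

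The genes that surround these transporters in the cell were taken from 4 lists drawn up by function. The lists too were chosen with earlier results of these data known, so their counts are descriptive. Of 26 other amino acid transporters, 16 passed the filter, and their roseoflavin effects in PANC-1 had a median of 0.0073, with 0 at an unadjusted p under 0.05 in either direction (5.01% of all genes higher and 4.46% lower). SLC7A10, SLC38A3, SLC38A4 and SLC43A1, at 0.062 TPM or less in AsPC-1, passed the filter through PANC-1 alone. SLC7A7, SLC7A9 and SLC1A1, at 0.347 TPM or less in PANC-1, passed through AsPC-1 alone. Such genes could hardly show an effect in the line where they were low. The line difference in response to roseoflavin was positive for 8 of the 16 and negative for 8, with 1 at an unadjusted p under 0.05, which 3.00% of all genes reached with a negative difference. This was SLC38A7 (-0.36, SE 0.133, limma adjusted p 0.484), a lysosomal glutamine transporter. SLC6A6, the taurine transporter, was at 146, 145, 142 and 152 TPM in PANC-1 with vehicle, roseoflavin, trametinib and both, and at 10.9, 9.37, 9.72 and 10.1 TPM in AsPC-1. SLC7A6, another light chain of SLC3A2, was at 14.2, 13.3, 15.5 and 13.2 TPM in PANC-1, lower in both roseoflavin libraries.

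Of 18 regulators of the integrated and oxidative stress responses, all tested, 8 had a positive roseoflavin effect in PANC-1 at an unadjusted p under 0.05 (5.01% of all genes), and in AsPC-1 3 had a negative one (7.33%). The difference between lines was positive for 15 of 18, with a median of 0.23. It passed the adjusted threshold for 1 (0.0209% of all genes passed with a positive difference), DDIT3, which encodes the stress factor CHOP (1.19, SE 0.0696, limma adjusted p 0.0383). DDIT3 passed in no fit that left out a single library, nor with quantile normalization, no filter, totals without mitochondrial genes or both interactions in 1 model, where 0 genes passed. ATF4 itself was at 236, 270, 231 and 272 TPM in PANC-1 with vehicle, roseoflavin, trametinib and both, and at 240, 220, 258 and 223 TPM in AsPC-1. Its direction with roseoflavin was thus that of ASNS in each line, and its difference between lines was 0.38 (SE 0.0672, limma adjusted p 0.259). TRIB3, a pseudokinase that feeds back on ATF4, was at 29.5, 46.3, 32.6 and 49.4 TPM in PANC-1 and at 14.6, 14.2, 12.2 and 14.0 TPM in AsPC-1. CEBPG, a partner of ATF4 on DNA, was at 64.3, 82.0, 66.1 and 80.1 TPM in PANC-1 and at 37.2, 35.2, 40.7 and 38.1 TPM in AsPC-1.

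Of 21 genes for the synthesis and use of amino acids, all tested, 10 had a positive roseoflavin effect in PANC-1 at an unadjusted p under 0.05 (5.01% of all genes), and 0 had an effect at that p in AsPC-1 in either direction (9.58% of all genes). The difference between lines was positive for 18 of 21 with a median of 0.15, and 0 passed after adjustment. PHGDH, GLUL, CBS and ASRGL1 were at 0.072 TPM or less in every AsPC-1 library and passed the filter through PANC-1 alone. They could hardly show an effect in AsPC-1, so their difference between lines is nearly their PANC-1 effect. Among users of cysteine, GCLM and GCLC, the subunits of the enzyme that starts glutathione synthesis, differed between lines by 0.75 (SE 0.128) and 0.57 (SE 0.0925). GCLM was at 22.3, 39.9, 22.5 and 39.7 TPM in PANC-1 and at 3.86, 4.48, 4.97 and 4.70 TPM in AsPC-1. GPT2, a mitochondrial alanine transaminase, was at 16.8, 23.8, 15.6 and 24.6 TPM in PANC-1 and at 19.6, 18.6, 19.6 and 18.6 TPM in AsPC-1. PSAT1, an enzyme of serine synthesis, was at 168, 225, 162 and 222 TPM in PANC-1 and at 16.0, 16.2, 16.5 and 13.7 TPM in AsPC-1.

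Of 19 genes listed for amino acid sensing by the growth kinase complex mTORC1, or for its inhibition, 18 were tested, and 3 had a positive roseoflavin effect in PANC-1 at an unadjusted p under 0.05 (5.01% of all genes). The difference between lines had a median of 0.03, close to the 0.04 of all genes, and passed after adjustment for 1 (0.0209% of all genes passed with a positive difference), DDIT4, an inhibitor of mTORC1 (0.91, SE 0.0540, limma adjusted p 0.0383). DDIT4 passed in none of the fits in which DDIT3 was lost. In AsPC-1 it was the 1 gene of this list with a negative roseoflavin effect at an unadjusted p under 0.05 (-0.50, limma adjusted p 0.162), which 7.33% of all genes had. SESN2, the leucine sensor of the pathway, was at 23.9, 31.9, 23.3 and 33.5 TPM in PANC-1 and at 4.37, 3.45, 4.29 and 4.08 TPM in AsPC-1, a difference of 0.62 (SE 0.107, limma adjusted p 0.254). RRAGD, at 0.471 TPM or less in AsPC-1, passed the filter through PANC-1 alone.

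**Figure D4:**
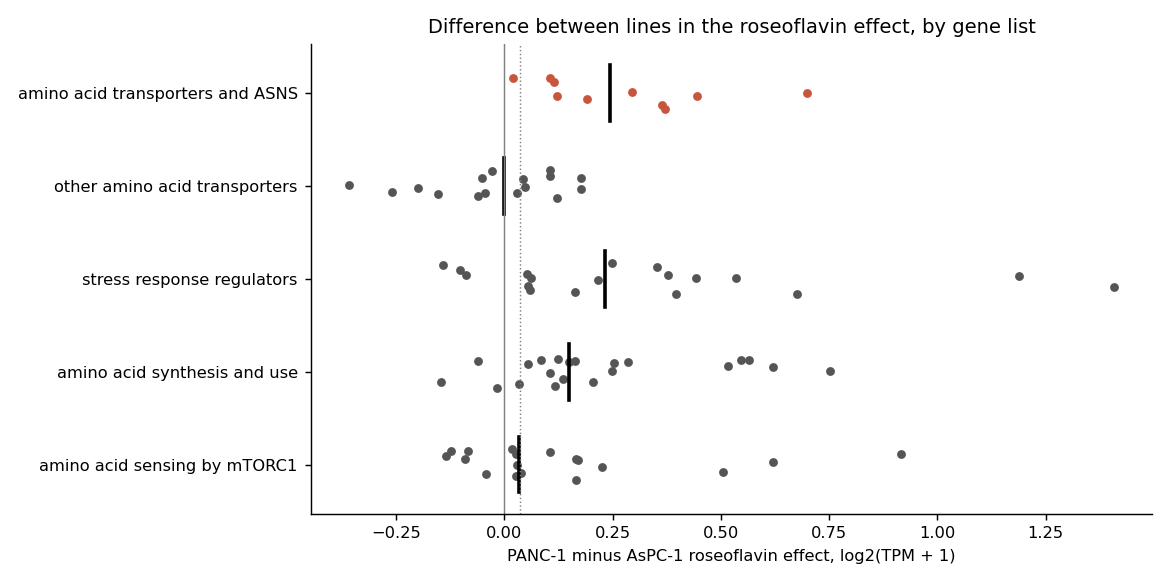
Difference between lines in the roseoflavin effect (PANC-1 minus AsPC-1, log2(TPM + 1) on the x axis) for the 10 genes and for the tested genes of 4 lists. Each point is a gene, spread vertically at random, the black bars are medians (0.24 for the 10 genes) and the dotted line is the median of all genes (0.04).

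The genes whose pattern was most like those of SLC7A11 and ASNS were sought among 489 named genes that averaged 10 TPM or more and had an SD of 0.2 or more after each line's mean was subtracted, by Pearson's r of those log2 values over the 8 libraries. Nearest to SLC7A11 were SRXN1 (0.99), TKT (0.95) and TRIM16L (0.95). SRXN1 was at 55.0, 91.3, 56.5 and 91.8 TPM in PANC-1 and at 57.6, 71.6, 54.6 and 64.4 TPM in AsPC-1 with vehicle, roseoflavin, trametinib and both, so both roseoflavin libraries were above the others in each line. Nearest to ASNS were DDIT3 (0.98), VEGFA (0.97) and MT1E (0.96). VEGFA was at 47.8, 63.4, 47.7 and 66.0 TPM in PANC-1 and at 25.7, 19.1, 26.9 and 20.4 TPM in AsPC-1, with opposite directions in the lines. Among the 10 genes themselves, r was 0.96 between SLC7A11 and SLC38A1, 0.92 between ASNS and SLC1A5 and 0.53 between SLC7A11 and ASNS. These values describe 8 libraries that share their treatments and carry no test.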

How the data were processed

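Libraries were made from RNA extracted with a column kit and prepared with a stranded mRNA kit, per the labels' protocols. The authors deposited 1 table of TPM, with 8 value columns named for a line and a treatment, per the file headers. STAR 2.7.3a, HTSeq 2.0.2 and the build hg38 are named in the submitters' processing notes. The annotation, gene lengths and handling of strand and shared reads are not given in the sources used here. The TPM of each library summed to 1000000, so depth is unknown and no counting interval was computed. Samples were grouped by the line and treatment in their titles.

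Genes that reached 1 TPM in no fewer than 2 libraries were tested as log2(TPM + 1), a scale that understates changes of low genes. Models were fitted over all of them with limma 3.58.1 in R 4.3.3 (eBayes with a trend), with Benjamini-Hochberg adjustment over all genes and a threshold of 0.05. Compound effects over both lines used line, roseoflavin and trametinib as additive terms. Effects per line and differences between lines added the interaction of line and compound, with 3 residual degrees of freedom shared by both lines. The level difference used treatment as a block. The models were also run on simulated data that held no trametinib effect and no interaction of the compounds. That run could not test the assumption of additive effects that stands in for replicates. Coordinates of genes are from GENCODE 29 on GRCh38, matched by Ensembl identifier.

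The 10 genes and the lists were chosen with earlier results of these data known. List genes were named by the smallest p for the line difference in the roseoflavin response, up to 6 per list that averaged 5 TPM or more, and only some of these are described. Genes of like pattern were the 3 with the highest r. The alternatives were quantile normalization, a pseudocount of 0.1, no filter, an average of 10 TPM or more, totals without mitochondrial genes, no line block, both line interactions in 1 model and leaving out each library. Summing ASNS with the locus that covers it was added after the data had been seen.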

Additional observations from a re-analysis of the deposited data

Results flagged for a closer look

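ASNS, SLC1A5 and SLC38A2 were lower with roseoflavin in both AsPC-1 pairs and higher in both PANC-1 pairs. The PANC-1 effect minus the AsPC-1 effect, tested as an interaction with limma, was 0.70 for ASNS (adjusted p 0.159), 0.36 for SLC1A5 (adjusted p 0.344) and 0.12 for SLC38A2 (adjusted p 0.562), none past the threshold. The pattern occurred in 11.5% of all genes tested. The AsPC-1 decrease of SLC38A2 changed sign under quantile normalization (0.0039).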

How the results depend on the processing

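No fit with a replicate block was possible because each group had 1 library and the labels give no replicate numbers, and pairs here are libraries matched by line and treatment. No member passed the adjusted threshold in any roseoflavin comparison under any alternative, and over 50 results for single genes, 668 of 685 refits kept the direction and the side of the threshold. Among these, all roseoflavin results lay above the threshold in the main fit, so staying there was likely beforehand and says little. The lowest limma adjusted p in PANC-1 under any alternative were those of SLC7A11 (0.0518) and ASNS (0.0555). In the main fit they were 0.132 and 0.114. The number of genes passing for the line difference in the roseoflavin response, 5 in all, was 0 with quantile normalization, with no filter, without mitochondrial genes in the total and with both interactions in 1 model, 8 with a pseudocount of 0.1, and 0 to 0 when any of the 8 libraries was left out. For roseoflavin in PANC-1 it was 0, but 2 with a pseudocount of 0.1 or no filter and 22 with a mean of at least 10 TPM. For roseoflavin in AsPC-1 it was 0, but 1 with a pseudocount of 0.1 and 10 with no filter. For the line difference in the trametinib response it was 0, but 4 with a pseudocount of 0.1, 2 with no filter and 2 without mitochondrial genes. For the level difference it was 15921, but 8313 with a mean of at least 10 TPM, where 9368 genes were tested. The level difference of SLC38A1 changed sign under quantile normalization (-0.14) and without mitochondrial genes (-0.080). The line difference of SLC7A5 did so under the same settings (-0.020 and -0.042) and ranged from -0.14 to 0.18 over left-out libraries. The SLC38A2 effect in AsPC-1 was 0.0039 under quantile normalization. Over left-out libraries the effects in AsPC-1 ranged from -0.039 to 0.28 for SLC7A5, from -0.062 to 0.076 for SLC3A2, from -0.052 to 0.22 for SLC1A4 and from -0.54 to -0.055 for SLC6A9, that of SLC6A9 in PANC-1 from -0.14 to 0.28, and that of SLC6A9 over both lines from -0.24 to 0.025. The cause of these shifts was not tested. Since TPM keep no depth, the precision of low values such as SLC1A4 in AsPC-1 is unknown. Neither SLC1A4 nor SLC6A9 reached a mean of 10 TPM, so that filter gave no value for them.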
